A study of Arabidopsis thaliana with 8 samples.

Results

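Transcript levels of 10 genes that decide when Arabidopsis thaliana flowers were compared between the mutant paps1-1 and its wild type. The genes were chosen by locus: FT (AT1G65480), TSF (AT4G20370), CO (AT5G15840), AGL20, also called SOC1 (AT2G45660), FUL (AT5G60910), LFY (AT5G61850), AGL24 (AT4G24540), FLC (AT5G10140), MAF1 (AT1G77080) and SVP (AT2G22540). They were covered by 12 probes, 3 of them for MAF1, on an array whose probes named 25665 loci. Of these loci 21446 had a probe bright enough to test, and 9 of the 10 genes were among them. TSF was the exception.

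Each of 8 arrays was hybridized in 2 colours with total RNA of paps1-1 and of wild type (WT), both in the accession Ler. PAPS1 encodes one of the nuclear poly(A) polymerases, the enzymes behind the poly(A) tails of messenger RNA. 4 arrays held main inflorescences, with open flowers removed, of soil-grown plants of 30 days, and 4 held whole seedlings with roots from MS plates, where mutants were 11 and wild types 9 days old. All plants grew at 21 °C in long days and were harvested 5 to 7 hours after the light came on. In seedlings, genotype and this difference of 2 days in age cannot be told apart. In each tissue replicates 1 and 2 had the mutant labelled with Cy5 and replicates 3 and 4 with Cy3, and the replicates were biological per the series' design text.

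Flowering is set by a few genes on which many inputs meet. In long days the transcription factor CO turns on FT in the phloem companion cells of leaves, and the FT protein moves to the shoot tip, where it acts with partners to raise AGL20, FUL and, through them, LFY, the gene that commits new meristems to becoming flowers. FLC, MAF1 and SVP encode MADS-box repressors that hold FT and AGL20 down. Ler is an early-flowering accession with a weak FLC allele and without a functional FRI, the gene that raises FLC in late-flowering accessions.

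Log2 ratios give paps1-1 over WT. They are relative to the typical transcript of the array and come with a moderated standard error (SE) from a limma fit over all 8 arrays. Genes with a p under 0.05 after Benjamini-Hochberg adjustment over the 21446 loci were called higher or lower. A gene counted as above background in a tissue if all 4 arrays of at least 1 genotype measured it well above the local background. In inflorescences 27.1% of the loci above background were called higher and 28.7% lower, and in seedlings 31.2% and 32%. A call by itself therefore sets a gene little apart, and sizes are given beside it. Against a change of 1.5-fold, a test added after the data were seen, 1.69% of loci were called higher and 1.06% lower in inflorescences, and 2.91% and 1.63% in seedlings. With each array centred on its median in place of loess, the share of calls that were higher moved from 49.4% to 32.4% in seedlings and from 50.7% to 36.4% for the difference between tissues. Across loci, the log2 ratios of 2 arrays correlated with r between 0.789 and 0.905 within inflorescences and between 0.701 and 0.896 within seedlings.

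In inflorescences, 4 of the 9 genes tested were higher in paps1-1 (FT, AGL20, CO and FUL), 4 were lower (AGL24, FLC, MAF1 and SVP), and LFY did not pass. These counts stand beside the 27.1% and 28.7% of all loci. The 9 log2 ratios ran from −0.67 for AGL24 to 1.61 for FT. Their median, −0.15, was the value of LFY, which did not pass, against −0.002 over all loci above background. In seedlings, 6 of the genes were above background. Of these, AGL20, AGL24, FLC and MAF1 were lower, none was higher, and FUL and SVP did not pass, beside 32% of all loci lower and 31.2% higher. Their median was −0.17, against −0.008 over all loci. Against a change of 1.5-fold, FT in inflorescences and FLC in seedlings were the calls left among the 9 genes.

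**Figure D1:**
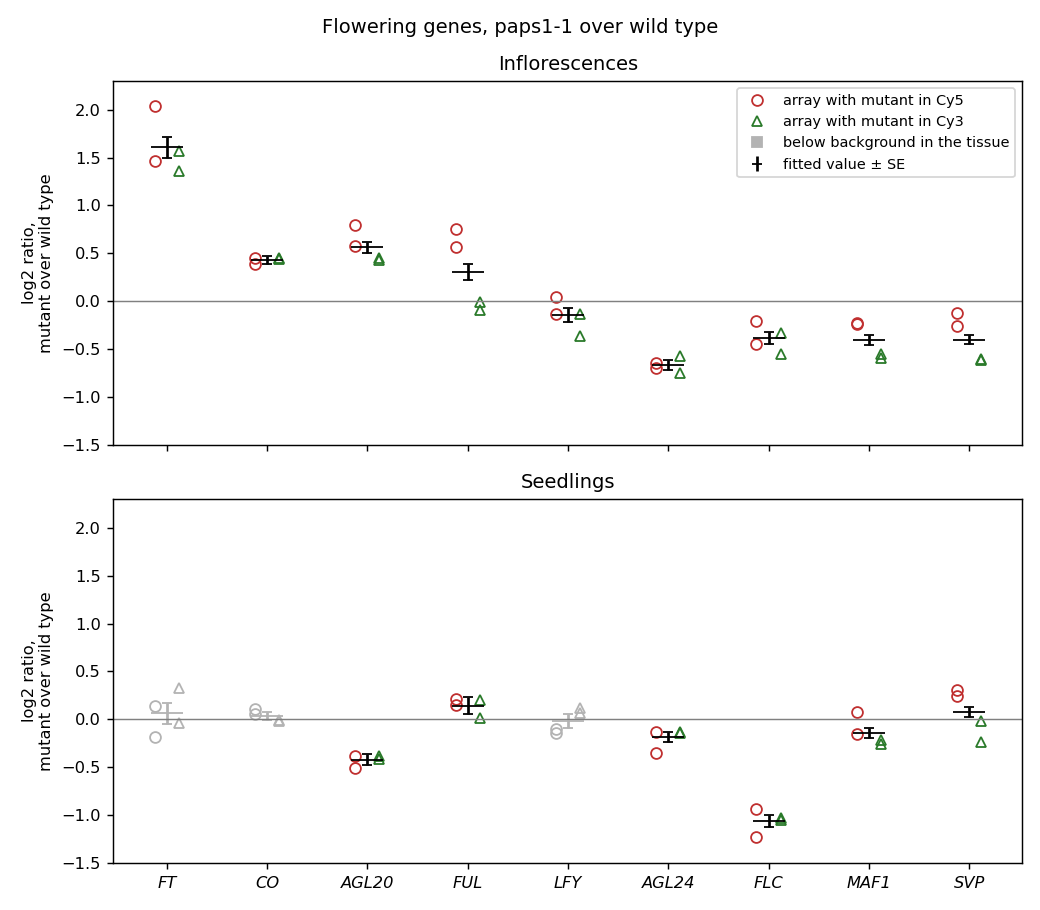
Log2 ratio of mutant over wild type (y axis) for each flowering gene (x axis) in inflorescences (top) and seedlings (bottom). Circles are arrays with the mutant in Cy5, triangles arrays with the mutant in Cy3, bars the fitted value ± SE, and grey marks genes below background in the tissue. FT stood at 1.61 in inflorescences and FLC at −1.06 in seedlings, and FUL in inflorescences lay near 0 on both arrays with the mutant in Cy3.

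FT encodes the mobile flowering signal, or florigen. In inflorescences its log2 ratio was 1.47 in replicate 1, 2.04 in replicate 2, 1.36 in replicate 3 and 1.57 in replicate 4. All 4 arrays put FT far above wild type, in either dye orientation. The fitted log2 ratio was 1.61 ± 0.11, a 3.05-fold higher signal in the mutant (limma, adjusted p = 2.43e-06; adjusted p = 0.000225 against a change of 1.5-fold), and it ranked 67th from the highest of the 21446 loci. Its mean normalized log2 intensity was 10.01 ± 0.25 (SD, n = 4) in mutant and 8.41 ± 0.08 (SD, n = 4) in wild-type inflorescences, and the ranges, 9.74 to 10.34 and 8.30 to 8.49, did not overlap. In seedlings FT was above background on 1 of 4 mutant arrays and on 0 of 4 wild-type arrays, so no change could be read there.

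Because FT is made in phloem companion cells, markers of the phloem, not all of them particular to these cells, were read beside it. All 5 (SUC2, APL, AHA3, SWEET11 and SWEET12, which include the sucrose carriers that load the phloem) were higher in mutant inflorescences, beside 27.1% of all loci. SUC2, the lowest of the 5, stood at 0.46 ± 0.08 and SWEET11, the highest, at 1.03 ± 0.05, beside 1.61 for FT. The summed intensity of the 5 markers ran from 12896 to 15966 in mutant and from 8592 to 9566 in wild-type inflorescences, without overlap. In seedlings 4 of the 5 were higher, beside 31.2% of all loci, with sums of 18647 to 22633 and 14922 to 16725. FT was below background there. The part of this marker shift in the FT result was not tested. In whole tissue, more cells of a type and more RNA per cell cannot be told apart.

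TSF, the nearest relative of FT and its partner in promoting flowering, was not above background on any inflorescence array. In seedlings it was above background in replicate 1, at a log2 intensity of 7.50 in mutant and 7.33 in wild type. The other 3 seedling arrays lay between 6.09 and 6.36, so no ratio was tested.

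CO encodes the B-box transcription factor that measures day length and activates FT. Its log2 ratios in inflorescences were 0.45, 0.39, 0.45 and 0.44 in replicates 1 to 4. They were nearly equal on all 4 arrays. The fitted value was 0.43 ± 0.04 (adjusted p = 2.31e-05). The probe was dim, with log2 intensities of 7.01 ± 0.05 in mutant and 6.58 ± 0.07 in wild type (SD, n = 4), close to the lowest measurable signals. The size of this ratio changed with the processing. It was 0.75 with no offset in the background correction, 0.86 with the scanner software's own processed signals and 0.73 in the deposited value table. In seedlings CO was above background on 1 of 4 mutant arrays and 0 of 4 wild-type arrays.

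AGL20 encodes the MADS-box integrator that receives the FT signal in the shoot tip, and it was the one member called in opposite directions in the 2 tissues. In inflorescences its log2 ratio was 0.58, 0.79, 0.45 and 0.43 in replicates 1 to 4. In seedlings it was −0.51, −0.38, −0.42 and −0.39. Every inflorescence array lay above 0 and every seedling array below it. The fitted values were 0.56 ± 0.06 (adjusted p = 3.00e-05) and −0.42 ± 0.06 (adjusted p = 0.000157). The seedling effect minus the inflorescence effect was −0.99 ± 0.08 (adjusted p = 3.26e-05), the one difference between tissues among the members that also passed against 1.5-fold (adjusted p = 0.0238). In intensity, wild type stood at 12.67 ± 0.22 in inflorescences and 12.56 ± 0.07 in seedlings, whereas the mutant stood at 13.24 ± 0.08 and 12.14 ± 0.10 (log2, SD, n = 4).

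FUL encodes a MADS-box factor of the inflorescence meristem and the fruit. In inflorescences its log2 ratio was 0.56 and 0.75 in replicates 1 and 2, where the mutant carried Cy5, and −0.00 and −0.09 in replicates 3 and 4. The ratio was thus high in one dye orientation and near 0 in the other. The fit gave 0.30 ± 0.09 (adjusted p = 0.0139). The call ended with the scanner software's processed signals (adjusted p = 0.133), with median centring (0.357), without the dye term (0.0560) and without inflorescence replicate 1 (0.0621) or replicate 2 (0.0928). In seedlings FUL was dim, at 0.14 ± 0.09 (adjusted p = 0.187). It was called higher there with no offset (0.36, adjusted p = 0.0174), with the scanner software's signals (0.51, adjusted p = 0.0232) and in the deposited value table (0.33, adjusted p = 0.0191).

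LFY encodes the transcription factor that gives floral meristems their identity. Its log2 ratios in inflorescences were 0.04, −0.13, −0.13 and −0.36 in replicates 1 to 4. One array lay just above 0 and the others below. The fit gave −0.15 ± 0.07 with a 95% interval of −0.30 to 0.01 (adjusted p = 0.102), and it ran from −0.22 without inflorescence replicate 1 (adjusted p = 0.0357) to −0.06 without replicate 4 (adjusted p = 0.508). In seedlings LFY was not above background on any array of either genotype.

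AGL24, a MADS-box gene that promotes flowering together with AGL20, was lower in both tissues. In inflorescences it read −0.70, −0.64, −0.57 and −0.75 in replicates 1 to 4. In seedlings it read −0.35, −0.13, −0.13 and −0.14. No array lay above 0, and seedling replicate 1 stood below the other 3. The fit gave −0.67 ± 0.05 (adjusted p = 5.67e-06) for inflorescences and −0.19 ± 0.05 (adjusted p = 0.0103) for seedlings. The seedling effect minus the inflorescence effect was 0.48 ± 0.07 (adjusted p = 0.00110). AGL24 and AGL20, which both promote flowering, had opposite signs in inflorescences.

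FLC encodes the repressor that vernalization silences. In seedlings its log2 ratio was −1.23, −0.94, −1.05 and −1.03 in replicates 1 to 4, and in inflorescences it was −0.21, −0.45, −0.55 and −0.34. All 8 arrays put FLC below wild type, and each seedling array lay below each inflorescence array. The fit gave −1.06 ± 0.06 in seedlings, a signal 2.09-fold lower in the mutant (adjusted p = 1.02e-06; adjusted p = 0.000812 against 1.5-fold), and −0.39 ± 0.06 in inflorescences (adjusted p = 0.000699). In seedlings it ranked 115th from the lowest of the 21446 loci. The seedling effect was larger by −0.68 ± 0.09 (adjusted p = 0.000521). With no offset the seedling value was −1.37, and with the scanner software's signals it was −1.51. The log2 intensity was 7.90 ± 0.06 in mutant and 8.96 ± 0.11 in wild-type seedlings (SD, n = 4), and 8.02 ± 0.13 and 8.40 ± 0.12 in inflorescences.

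MAF1, also known as FLM, is an FLC relative whose splice forms act together with SVP. Its brightest probe read −0.22, −0.24, −0.55 and −0.59 in inflorescences and −0.16, 0.07, −0.26 and −0.22 in seedlings. All inflorescence arrays were below 0, and in seedlings replicate 2 was above it. The fit gave −0.40 ± 0.05 (adjusted p = 0.000103) and −0.14 ± 0.05 (adjusted p = 0.0336). The seedling call ended with the replicate number as a block (adjusted p = 0.0536), in the deposited value table (0.0514), without the dye term (0.155), with seedling arrays alone (0.0814), and without seedling replicate 1 (−0.08, adjusted p = 0.134) or replicate 3 (0.0891). A second MAF1 probe, made for another transcript model, gave −0.46 ± 0.04 in inflorescences and −0.36 ± 0.04 in seedlings (adjusted p = 6.44e-05 in a fit over all probes), so both probes were lower in both tissues. The third was below background. The effects in the 2 tissues differed by 0.26 ± 0.07 (adjusted p = 0.0194) for the first probe, a call that ended in 9 of 18 alternative settings, and by 0.10 (adjusted p = 0.225) for the second.

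SVP encodes the MADS-box partner with which FLC and MAF1 repress FT and AGL20. In inflorescences it read −0.12, −0.26, −0.61 and −0.61, and in seedlings 0.31, 0.24, −0.23 and −0.02. Inflorescence arrays were all below 0, whereas seedling arrays fell on both sides of it, with those of the mutant in Cy5 above. The fit gave −0.40 ± 0.05 (adjusted p = 9.65e-05) in inflorescences and 0.07 ± 0.05 in seedlings, with a 95% interval of −0.04 to 0.18 (adjusted p = 0.225). The difference between tissues was 0.48 ± 0.07 (adjusted p = 0.000804). In inflorescences the fitted values of all 3 repressors were −0.39 to −0.40, while in seedlings they ran from −1.06 for FLC to 0.07 for SVP. Both MAF1 and SVP lay nearer 0 in inflorescences on arrays with the mutant in Cy5, and the second MAF1 probe gave −0.46 there.

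Across the 6 genes measured in both tissues, the seedling effect was above the inflorescence effect for AGL24, MAF1 and SVP and below it for AGL20 and FLC, beside 15.1% and 16.1% of all loci. Against 1.5-fold the shares of all loci were 0.911% above and 0.52% below. FUL did not pass (−0.16 ± 0.12, adjusted p = 0.346, 95% interval −0.44 to 0.11). All arrays of a tissue shared 1 slide. In these differences slide and tissue cannot be told apart, whereas genotypes were set against each other within arrays.

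The genes also differed between tissues within a genotype, where 83.5% of loci were called in wild type and 79.6% in mutant. FUL, a gene of the inflorescence, was 52.9-fold higher in wild-type inflorescences than in seedlings and 59.2-fold higher in mutant ones. Its seedling signal was near the floor, above background on 3 of 4 wild-type and 4 of 4 mutant arrays, so these folds are rough. SVP showed the reverse, at 14.2-fold higher in wild-type and 19.7-fold higher in mutant seedlings. AGL24 was 5.53-fold higher in wild-type and 3.98-fold higher in mutant inflorescences. The folds rest on normalization between arrays. Without it the median seedling minus inflorescence difference over all loci moved from −0.067 to −0.708 in wild type and from −0.0687 to −0.704 in mutant. On the log2 scale, AGL24 then moved from −2.47 to −3.20 in wild type and from −1.99 to −2.73 in mutant, and SVP from 3.83 to 3.19 and from 4.30 to 3.66. For genes below background in seedlings these are bounds. FT was at least 4.45-fold higher, LFY at least 3.64-fold higher and CO at least 1.16-fold higher in wild-type inflorescences, the bound being set by the lowest signals well above background. LFY was at least 3.36-fold higher in mutant inflorescences.

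For AGL20, FLC and MAF1, whether the tissue difference passed in a genotype depended on the scaling. AGL20 in wild type differed between tissues by −0.11 ± 0.08 (seedling minus inflorescence, log2, adjusted p = 0.242), which passed without inflorescence replicate 2 (−0.20, adjusted p = 0.0192) and without normalization between arrays (−0.65, adjusted p = 9.71e-09). Other left-out replicates brought it to as little as −0.05 (adjusted p = 0.613). In the mutant it differed by −1.10 ± 0.07 (adjusted p = 8.47e-08). FLC in wild type was 0.55 ± 0.07 higher in seedlings (adjusted p = 4.05e-05), and in the mutant the difference was −0.12 ± 0.07 (adjusted p = 0.143). Without normalization between arrays the wild-type FLC value turned to −0.20 (adjusted p = 0.0537) and the mutant value was −0.88 (adjusted p = 7.10e-07). The mutant value also passed with quantile normalization over all channels (−0.19, adjusted p = 0.0268) and without seedling replicate 4 (−0.17, adjusted p = 0.0483). For MAF1 the same difference was −0.29 ± 0.05 in wild type (adjusted p = 0.000514) and −0.03 ± 0.08 in the mutant (adjusted p = 0.723), where it was −0.70 without normalization between arrays (adjusted p = 1.48e-05).

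**Figure D2:**
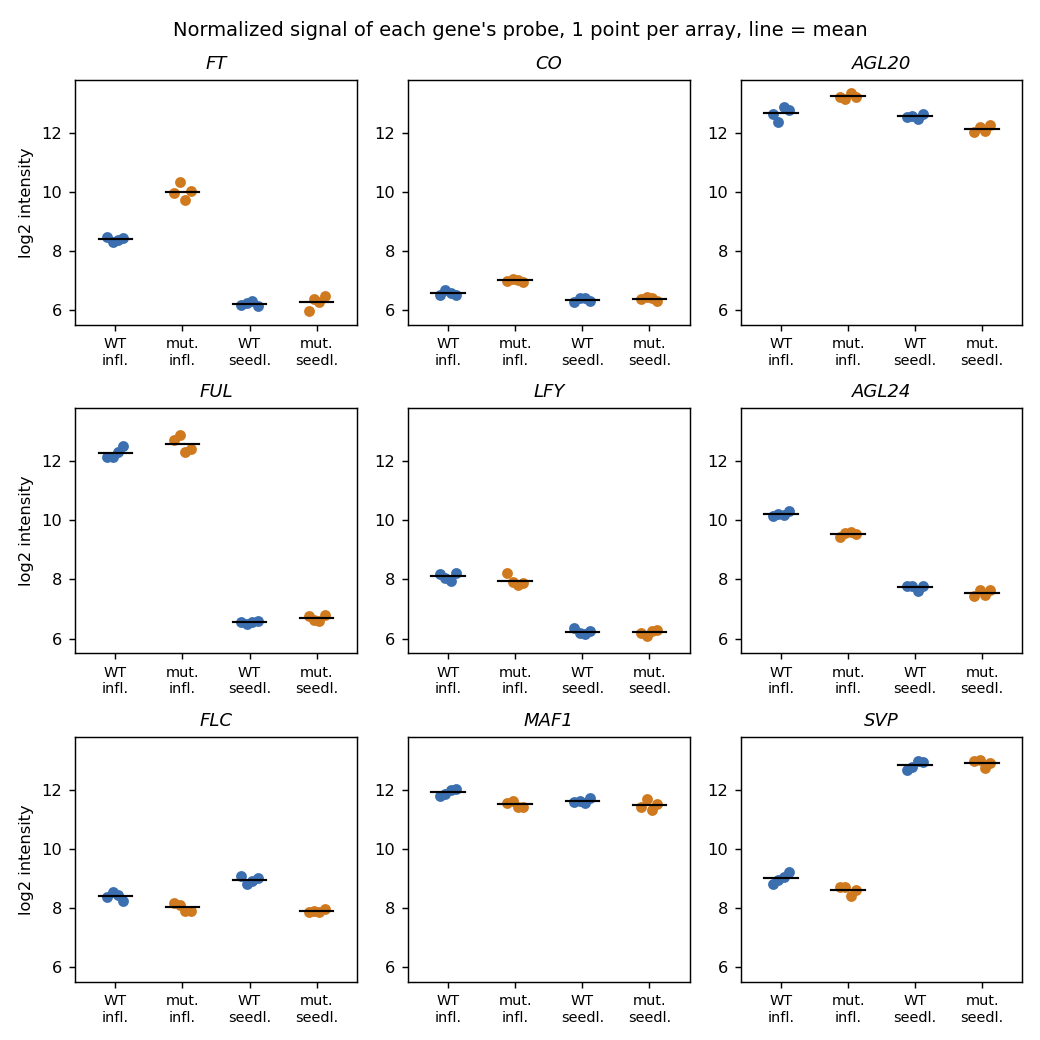
Normalized log2 intensity (y axis) of the probe of each flowering gene in wild-type (WT, blue) and mutant (mut., orange) inflorescences (infl.) and seedlings (seedl.), 1 point per array and a line at the mean. FUL, FT and LFY were brighter in inflorescences and near the floor in seedlings, SVP was brighter in seedlings, and the levels of 1 gene are not comparable with those of another.

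FLC and MAF1 belong to a clade of MADS-box repressors whose other members, MAF2 to MAF5, lie next to each other on the chromosome. Of these 4 genes, 3 were lower and none higher in each tissue, beside 28.7% of all loci lower in inflorescences and 32% in seedlings. Their median was −0.47 in inflorescences and −0.44 in seedlings. MAF5 in inflorescences read −2.03, −1.63, −1.51 and −1.06 in replicates 1 to 4. These were below every ratio of FLC in that tissue. The fit gave −1.56 ± 0.09 (adjusted p = 1.05e-06), and in seedlings MAF5 was at −0.54 ± 0.09. MAF4 read −1.30, −1.10, −1.08 and −1.02 in seedlings, close to FLC there, and was fitted at −1.12 ± 0.06 (adjusted p = 5.28e-07), with −0.66 ± 0.06 in inflorescences. MAF3 was at −0.28 ± 0.07 and −0.35 ± 0.07. MAF2 did not pass in either tissue, at −0.07 ± 0.05 (adjusted p = 0.244) and −0.10 ± 0.05 (adjusted p = 0.122), both from the fit over all probes. Whether the probes tell these related transcripts apart was not tested.

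**Figure D3:**
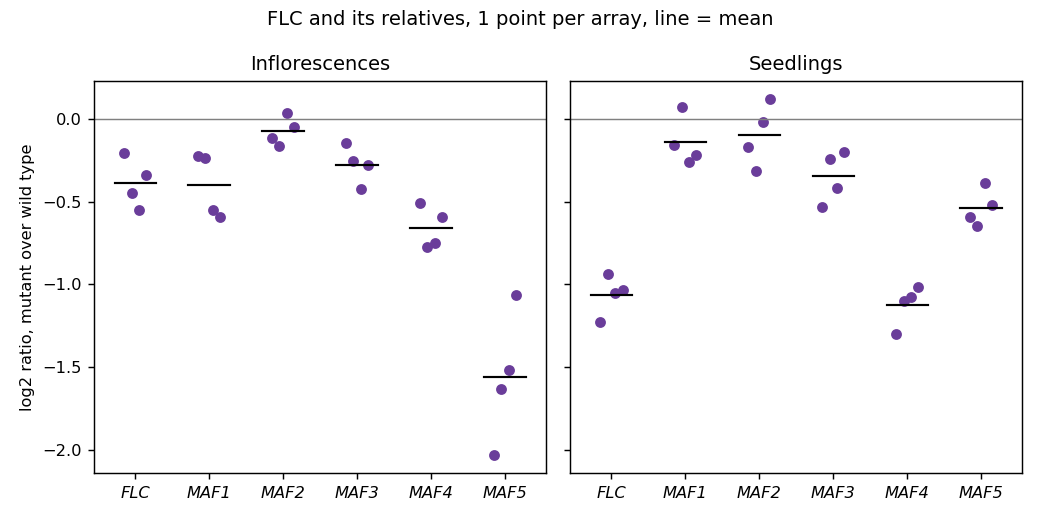
Log2 ratio of mutant over wild type (y axis) for FLC and MAF1 to MAF5 (x axis) in inflorescences (left) and seedlings (right), 1 point per array and a line at the mean. MAF5 was lowest in inflorescences, at −1.56, and MAF4 and FLC were lowest in seedlings, at −1.12 and −1.06.

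Regulators of FLC were read from lists of known genes. Of 17 activators of FLC above background, 3 were higher and 6 lower in inflorescences, beside 27.1% and 28.7% of all loci. In seedlings 1 was higher and 9 lower, beside 31.2% and 32%. The medians were −0.04 and −0.17. ELF7, a subunit of the Paf1 transcription complex, was at −0.61 ± 0.05 in inflorescences and −0.53 ± 0.05 in seedlings. EFS, a histone methyltransferase, was at −0.30 ± 0.06 and −0.61 ± 0.06, and ATX1, another, at −0.41 ± 0.06 and −0.48 ± 0.06. SUF4, a zinc finger protein that acts with FRI, was higher, at 0.19 ± 0.05 and 0.30 ± 0.05.

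The autonomous pathway represses FLC. Of its 10 genes, 4 were lower and none higher in inflorescences, beside 28.7% of all loci lower. In seedlings 8 were lower and none higher, beside 32% of all loci lower. The medians were −0.003 and −0.17. FCA, an RNA-binding protein that promotes early 3′ end formation of the FLC antisense transcript, was at −0.70 ± 0.07 and −0.83 ± 0.07. FVE, a histone-binding protein, was at −0.23 ± 0.06 and −0.44 ± 0.06. Of 7 vernalization and Polycomb genes above background in inflorescences, 2 were higher and 2 lower, beside 27.1% and 28.7% of all loci. In seedlings 6 were above background, with none higher and 2 lower, beside 31.2% and 32%. VRN5 was lower in both tissues, at −0.52 ± 0.05 and −0.48 ± 0.05, as was SWN. VRN1 and VIN3 were higher in inflorescences, at 0.28 ± 0.05 and 0.13 ± 0.05. VRN1 did not pass in seedlings, and VIN3 was below background there.

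The photoperiod pathway measures day length and acts through CO. Of its 18 genes, 3 were higher and 3 lower in inflorescences, beside 27.1% and 28.7% of all loci. FKF1, the blue-light receptor that frees CO from repression, stood at 0.50 ± 0.15 there. In seedlings none was higher and 11 were lower, beside 31.2% and 32% of all loci. The photoreceptor genes PHYB, CRY1 and PHYA stood at −0.79 ± 0.08, −0.61 ± 0.05 and −0.39 ± 0.05 there. The difference between tissues passed for 11 of the 18, all with the seedling effect below the inflorescence effect, beside 16.1% of all loci. PHYA was the largest of those named, at −0.67, being higher in inflorescences (0.27 ± 0.05).

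Of 8 other repressors of FT, 3 were lower in inflorescences and none higher, beside 28.7% and 27.1% of all loci. TEM1, a RAV-type repressor that binds FT, was at −0.65 ± 0.09, the AP2-like gene TOE1 at −0.37 ± 0.08 and the chromatin protein gene LHP1 at −0.34 ± 0.06. In seedlings 3 of the 8 were lower and 1 higher, beside 32% and 31.2% of all loci. SNZ (−0.91 ± 0.05), TEM2 (−0.38 ± 0.09) and TOE1 (−0.38 ± 0.08) were lower and TOE2 was higher (0.31 ± 0.08). Among genes of the FT family, its transport and its partners, FTIP1, which is needed for FT to leave companion cells, was higher in both tissues, at 0.53 ± 0.04 and 0.56 ± 0.04. ATC, an FT relative that delays flowering, read 1.55, 1.78, 1.27 and 1.27 in seedlings. It was high on all 4 seedling arrays and below background in inflorescences. The fit gave 1.47 ± 0.06 in seedlings (adjusted p = 1.50e-07). TFL1, the inflorescence gene that opposes FT, was at −0.31 ± 0.08 in seedlings and 0.03 ± 0.08 in inflorescences. Its inflorescence ratios were 0.30 and 0.27 with the mutant in Cy5 and −0.20 and −0.26 in Cy3.

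The age and gibberellin pathways reach AGL20 beside FT. All counts in this paragraph stand beside 28.7% of loci lower and 27.1% higher in inflorescences, and 32% and 31.2% in seedlings. Of 7 SPL genes of the age pathway, 5 were lower and 1 higher in inflorescences, and 4 lower and 1 higher in seedlings. SPL11 was at −0.59 ± 0.05 and −0.47 ± 0.05, while SPL4 was lower in inflorescences (−0.36 ± 0.06) and higher in seedlings (0.40 ± 0.06). Of 8 gibberellin genes, 4 were lower in inflorescences and 6 in seedlings, with 1 higher in seedlings. RGL1, which encodes a DELLA repressor of gibberellin responses, was at −1.24 ± 0.04 and −0.82 ± 0.04, and GAI, another, at −0.44 ± 0.05 and −0.91 ± 0.05. GA3OX1, an enzyme that makes active gibberellin, was at −0.81 ± 0.06 in inflorescences and 0.44 ± 0.06 in seedlings. Of 6 MADS-box genes related to AGL20 or its targets, 4 were lower and 1 higher in inflorescences, and 3 of 5 were lower in seedlings. AGL42, a close relative of AGL20, read −1.14, −0.98, −0.76 and −0.99 in inflorescences, opposite in sign to AGL20 on every array. It was fitted at −0.97 ± 0.06 there and −0.68 ± 0.06 in seedlings.

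**Figure D4:**
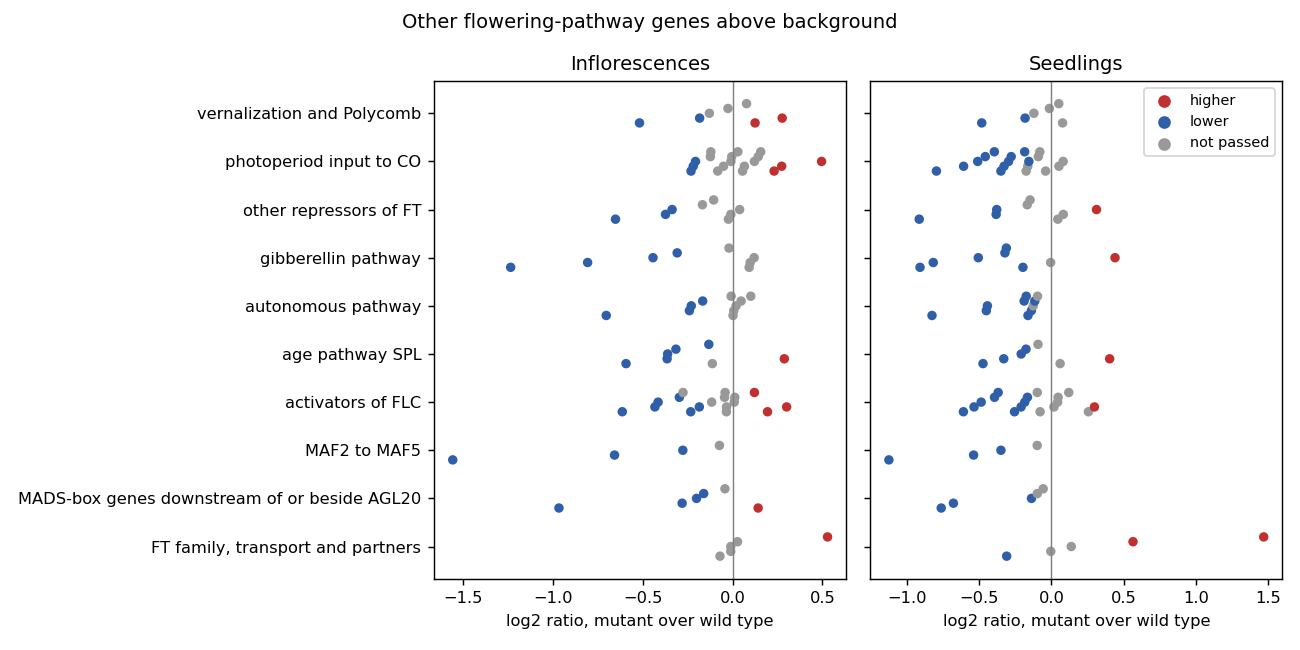
Log2 ratio of mutant over wild type (x axis) for genes above background on each pathway list (y axis), in inflorescences (left) and seedlings (right), with 1 point per gene, red for genes called higher, blue for genes called lower and grey for those that did not pass. Photoperiod genes lay on both sides of 0 in inflorescences and 11 of 18 were called lower in seedlings, beside 32% of all loci. ATC at 1.47 was the highest point.

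Markers of organs were read in the same samples. Their counts stand beside 27.1% of loci higher and 28.7% lower in inflorescences, and 31.2% and 32% in seedlings. Flower markers summed to between 113967 and 137420 in inflorescences and between 1724 and 2927 in seedlings. In inflorescences 3 of 5 flower markers were higher in the mutant (sums of 127175 to 137420 against 113967 to 118152). Of 4 shoot meristem markers tested 2 were higher there, while CLV3 was not tested. Of the 5 root markers above background in inflorescences, 3 were higher and 1 lower. Sums over all 7 root markers, 2 of them below background in inflorescences, were 4179 to 4748 against 4025 to 4557. Of 5 leaf photosynthesis genes 2 were higher and 1 lower (478905 to 539142 against 433296 to 545670). LHCB1.3, 1 of the 2 called higher, read −0.20 and −0.40 with the mutant in Cy5 and 0.67 and 0.85 in Cy3. The sums overlapped for root and for leaf markers. In seedlings all 5 leaf photosynthesis genes were called lower (sums of 362689 to 488281 against 548710 to 737225). The sign of RCA and RBCS1A turned with the dye. With the mutant in Cy5, RCA read 0.61 and 0.10 and RBCS1A 0.155 and 0.117. In Cy3 they read −1.13 and −1.22, and −0.57 and −0.46. Of 7 root markers 5 were higher and 1 lower, with sums that overlapped (6829 to 8342 against 5300 to 6992). IRT1, 1 of the 5, read 2.01, 0.59, 1.00 and −0.06 in replicates 1 to 4. Of 4 meristem markers 3 were higher and 1 lower. These shifts stood beside the values of FT and AGL20 in inflorescences and of FLC, AGL20 and the photoperiod genes in seedlings. The part of the marker shifts in these values was not tested.

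Over the 8 arrays, the loci whose log2 ratios lay nearest to those of FT were AT1G22690 (root mean square difference 0.122), HIPP22 (0.217) and NAC090 (0.265). AT1G22690 stood at 1.60 in inflorescences and 0.04 in seedlings. Nearest to AGL20 were SD1-13 (0.105), AT5G63180 (0.142) and AT4G30400 (0.152). SD1-13, for example, stood at 0.47 and −0.40. The nearness is a description over 8 arrays of 2 tissues. For FT the 4 seedling ratios come from signals below background, as do those of NAC090, so its nearness rests on the inflorescence arrays.

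**Figure D5:**
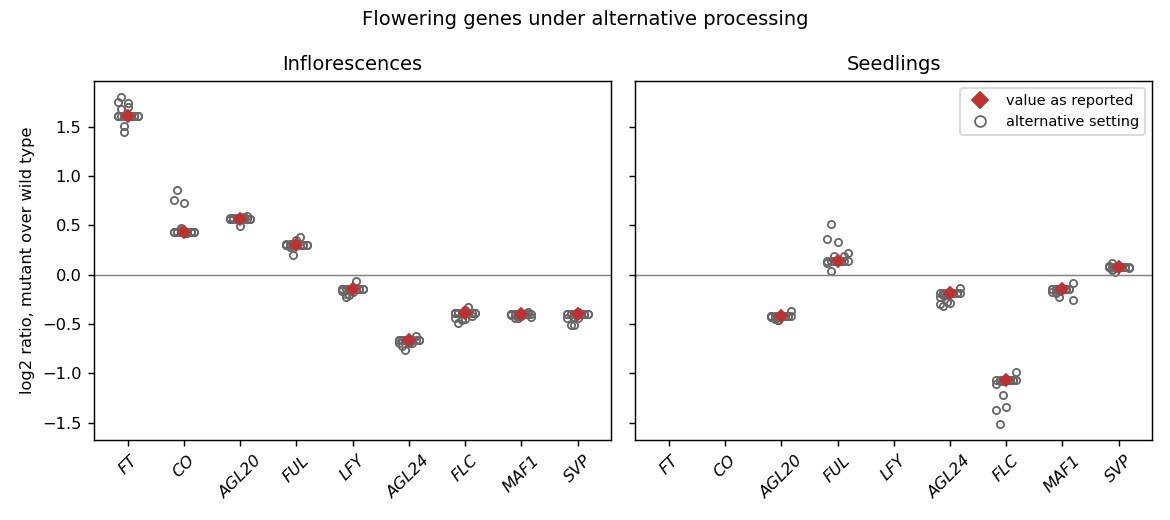
Log2 ratio of mutant over wild type (y axis) of each flowering gene (x axis) under alternative processing (grey circles) and as reported (red diamonds), in inflorescences (left) and seedlings (right), where FT, CO and LFY were below background and have no point. CO in inflorescences ran up to 0.86 and FLC in seedlings down to −1.51, and no gene called as reported crossed 0.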

How the data were processed

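Per the file headers, the deposited files are scanner output of Feature Extraction 10.7.3.1, with median spot and background intensity in both colours (not normalized) beside a processed intensity and its log10 ratio. The value table deposited for the series holds log2 ratios that the authors had turned to mutant over wild type. Its correlation with red over green was 0.961 to 0.967 on arrays with the mutant in Cy5 and −0.958 to −0.971 on the others. Its background correction is not given in the sources used here, nor is the labelling primer. RNA was extracted by hot phenol per the labels' protocols.

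Intensities were corrected with normexp (offset 50), normalized by loess within arrays and Aquantile between them, and fitted with limma 3.58.1 (R 4.3.3, with version 1.17.8 of the data.table package) with 1 coefficient per tissue and a dye term, which left 5 residual degrees of freedom. Loess sets the typical ratio of an array to 0, and the offset shrinks ratios of dim probes. Probes had to be well above background on all 4 arrays of 1 genotype in 1 tissue and unflagged on at least 6 arrays, and the brightest stood for its locus. The fit was also run on simulated data, and the outcome is not given here. Signal over background ran from 2.66 to 5.02 in red and 3.35 to 5.51 in green, and the number of arrays limits precision.

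The genes and lists were chosen with earlier results of these data known. From each list, at most 4 genes per direction and tissue, by size, could be named, and MAF2 and the marker genes were named beside them. Same-numbered arrays of both tissues deviated together (r of 0.119 to 0.320), but the numbers also carry the dye orientation, and with the dye term r was −0.406 to −0.078. Alternatives covered background, normalization, filters, probes, dye, block and replicates. No genome position or sequence is given, because the files name no genome build.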

Additional observations from a re-analysis of the deposited data

Results flagged for a closer look

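In 15 sets of 4 arrays (a flowering gene in a tissue), 2 had an array that stood apart from the other 3, where chance alone gives about 1 in 20. These were CO in inflorescence replicate 2, at 0.39 beside 0.44 to 0.45, and AGL24 in seedling replicate 1, at −0.35 beside −0.14 to −0.13. None of 103 sets of the list genes did.

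The effect of the mutation differed between tissues (seedling minus inflorescence, limma, adjusted p under 0.05) for 5 of the flowering genes: AGL20 at −0.99, FLC at −0.68, MAF1 at 0.26, SVP at 0.48 and AGL24 at 0.48. The list genes given here are those named by size within a tissue, and others on the lists passed too. Among FLC relatives and regulators it differed for MAF4 at −0.47, MAF5 at 1.02, EFS at −0.31 and VRN1 at −0.22. Among gibberellin genes it differed for GA3OX1 at 1.25, RGL1 at 0.42, RGL2 at −0.60, GAI at −0.46 and RGA at −0.42. For 6 of the 11 photoperiod genes that passed, it was −0.67 for PHYA, −0.58 for PHYB, −0.39 for CDF3, −0.39 for ZTL, −0.38 for CRY1 and −0.33 for CIB1. For repressors of FT it was −0.81 for SNZ, −0.37 for TEM2 and 0.49 for TEM1. TFL1 at −0.34, AGL42 at 0.29 and SPL4 at 0.77 differed as well, though the sign of TFL1 in inflorescences turned with the dye.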

How the results depend on the processing

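Most values kept their direction and side of the threshold: of the single-gene values, 554 did so, 33 no longer passed, 10 newly passed and 6 turned sign. FUL supplied 3 of the latter, its difference between tissues being 0.047 with no offset, 0.20 with the scanner software's signals and 0.020 in the deposited value table. Those settings also made FUL the 1 gene called higher in seedlings, where none was as reported. FLC in wild type turned to −0.20 (seedling minus inflorescence) without normalization between arrays, and MAF1 in mutant, −0.03 as reported, ran from −0.082 to 0.025 over left-out replicates, turning without seedling replicate 1 or 3 (0.010), and was −0.70 without normalization between arrays. Requiring signal above background in both channels of all 8 arrays left 1 gene called higher in inflorescences, AGL20, because FT, CO and FUL were not tested there. Median centring called 2939 loci as different between tissues, against 6908. Against a change of 1.5-fold, chosen after seeing the data, 1 gene was higher and 0 lower in inflorescences (562 loci in all), 1 was lower in seedlings (883 loci), and 0 were higher and 1 lower for the difference (354 of all loci tested). Other causes were not tested.

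Leaving out each replicate in turn gave 3 to 4 members higher and 4 to 5 lower in inflorescences, 0 higher and 3 to 4 lower in seedlings, and 2 to 3 higher and 2 lower for the difference. Loci called numbered 9291 to 12638, 10331 to 12388 and 4930 to 7803, and 17462 to 17693 for wild-type and 16307 to 17368 for mutant levels. The replicate number as a block called 11056, 11951 and 6150 loci and changed no member call other than MAF1 in seedlings (adjusted p = 0.0536). Dim probes limit FT, TSF, CO, LFY and FUL in seedlings.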
